A study of Homo sapiens with 6 samples.

Results

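TRIM proteins are a family built on a tripartite motif of a RING finger, 1 or more B-boxes and a coiled coil, followed by a C-terminal domain that differs between subfamilies. Through the RING finger most of them act as ubiquitin ligases, as parkin, the product of PARK2, also does through an unrelated RING arrangement. Members are best known for restricting viruses and tuning interferon signalling, for binding chromatin, and for turning over proteins of the cytoskeleton in neurons and muscle.

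TRIM genes were taken as all genes whose symbol begins with TRIM followed by a number and which had an array probe set assigned to that gene alone. This gave 59 genes of 19775 with such a probe set, and each was represented by its brightest probe set, the one with the highest mean over all arrays. Of the 59, 55 are protein-coding in RefSeq, 2 are long non-coding RNAs (TRIM52-AS1 and TRIM67-AS1) and 2 are pseudogenes (TRIM16L and TRIM64EP).

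The arrays compared U251 cells with PARK2 overexpression (3 arrays) and U251 control cells with GFP overexpression (3 arrays). U251 is a human glioma line, and both lines had been made by viral infection with polybrene and kept by puromycin selection, so both groups share the infection, the drug and culture in DMEM with serum. The vector and its promoter are not given in the sources used here. Replicates are labelled as biological, with no word on separate cultures or infections, so p-values measure the spread between these arrays, which may be technical. Each group is 1 selected line, and whether other PARK2 lines would give the same values was not tested. In bulk RNA, fewer cells expressing a gene and less RNA per cell cannot be told apart.

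Values are linear intensities in array units, and array medians lay between 16.2 and 19.3. The 5 glioma line markers read (VIM, CD44, NES, TNC and FN1) were at 883 or more on every array, while 5 markers of blood, liver, epithelium and endothelium (PTPRC, CD3E, ALB, EPCAM and PECAM1) were at 33.8 or less. Control replicate 1 ran high: it was the highest control array for 33 of the 44 tested TRIM genes (75.0%) and for 74.1% of all tested genes. The level of the PARK2 transgene is not reported here.

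Of the 59 TRIM genes, 15 lay near background and were not tested. A gene was tested where the mean log2 value of its probe set over the 6 arrays reached the 40th percentile of all probe sets, a level of about 9.87 units. The 15 below it were TRIM15, TRIM17, TRIM29, TRIM31, TRIM40, TRIM50, TRIM51, TRIM54, TRIM55, TRIM58, TRIM59, TRIM63, TRIM64EP, TRIM71 and TRIM72, and their arrays ran from 0.176 to 19.3 units. Among them were the muscle ligases TRIM63 (MuRF1), TRIM55 (MuRF2) and TRIM54 (MuRF3), and the stem-cell factor TRIM71. A further 9 of the 44 tested genes had means under 50 units in both groups. Of these 9, 0 passed the test described next, where 28.8% of all tested genes, dim or bright, passed. The share for dim genes alone is not given here.

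PARK2 cells differed from control cells in 16 of the 44 tested TRIM genes, with 8 higher and 8 lower. The test was limma on log2(intensity + 16), run over all 13720 tested genes with a Benjamini-Hochberg adjusted p under 0.05, and rose, fell, higher and lower are used below of genes past it. These 16 are 36.4% of the tested TRIM genes, beside 28.8% of all tested genes. The 8 that rose are 18.2%, beside 13.3% of all tested genes, and the 8 that fell are 18.2%, beside 15.6%. The median log2 fold change (PARK2 over control) of the tested TRIM genes was 0.08, beside -0.0026 for all tested genes, and the median absolute log2 fold change was 0.27, beside 0.25. The arrays of the groups did not overlap for 21 TRIM genes, 11 with the PARK2 arrays above and 10 with them below, where 39.5% of all tested genes did not overlap. Changes of 2-fold or more on this scale were seen in 2 of the 44, TRIM36 and TRIM6, where 5.59% of all tested genes passed with such a change. Of the 44, TRIM10, TRIM36 and TRIM61 had control means under the filter level and were tested only through their PARK2 arrays, so a difference was built into their choice, and TRIM36 is among the 8 that rose. The 28 that did not pass lay between -0.38 and 0.59 on the log2 scale, and 3 of them (TRIM10, TRIM46 and TRIM47) had an unadjusted p under 0.05.

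**Figure D1:**
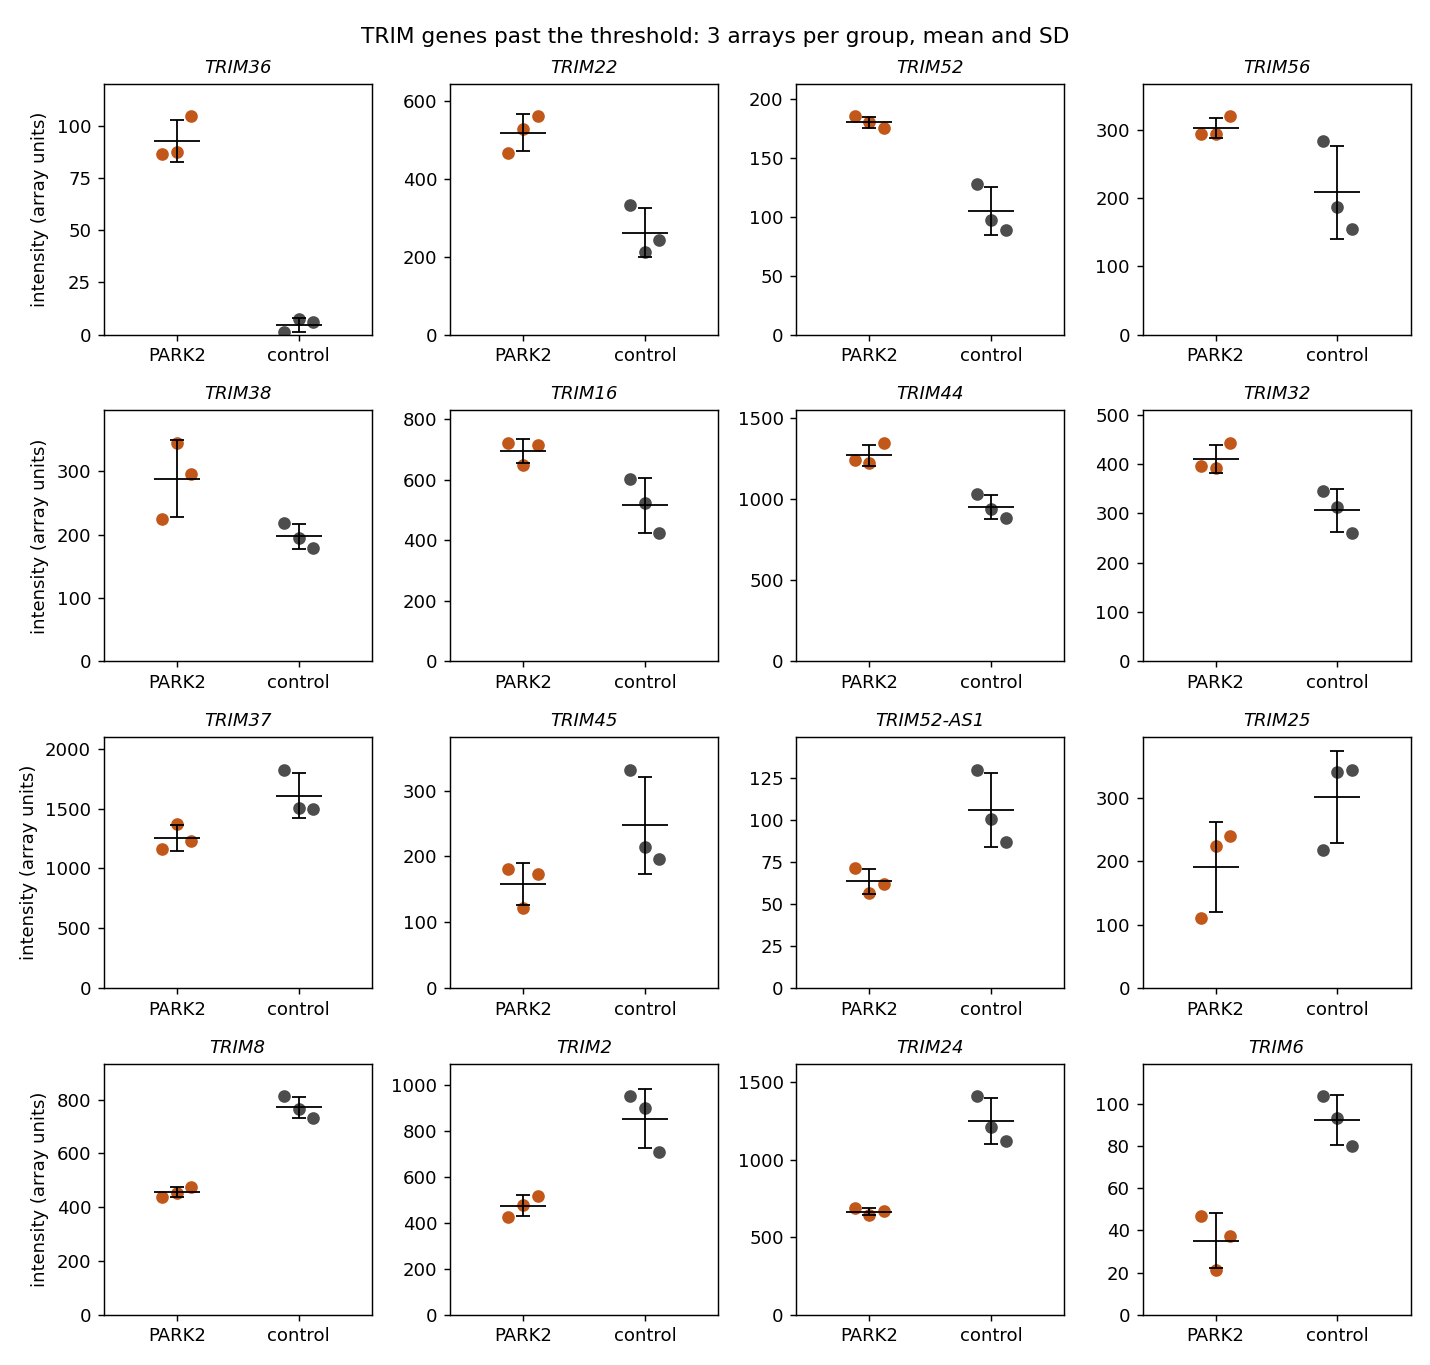
Intensity (array units, linear axis from 0) of the 16 TRIM genes past the threshold, with 1 point per array, PARK2 left and control right; bars are the mean and SD of 3 arrays. TRIM36 stands at 86.5 to 104 units on the PARK2 arrays and at 1.13 to 7.46 on the control arrays, and TRIM25 is the gene among the 16 whose groups overlap.

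TRIM36 was read in PARK2 cells and lay under the filter level in control cells. It belongs to the subfamily with a COS box, which binds microtubules, a fibronectin type III domain and a SPRY domain, and it is known in Xenopus for a part in early axis formation. TRIM36 stood at 86.5, 87.2 and 104 units on the PARK2 arrays, against 1.13, 7.46 and 5.89 units on the control arrays. Every PARK2 array was far above every control array, and all 3 control arrays were under the filter level of 9.87 units. TRIM36 passed the filter through its PARK2 arrays alone, so its fitted log2 fold change of 2.39 is a description. Set against the filter level in place of the control arrays, the PARK2 arrays were 2.07 higher on the same scale. With no filter, where every gene with a probe set was tested, its adjusted p was 2.5e-05. There too its probe set was chosen by the mean over all arrays, so the choice drew on the PARK2 arrays. The fitted size depends on the pseudocount, at 4.23 with 1 and 1.19 with 64 in place of 16. For the 10 tested genes on each side of TRIM36 along chromosome 5, the median deviation from their means was taken on each array. Averaged over the arrays of a group, it was 0.40 higher in PARK2 than in control cells on the log2 scale. Neighbour medians given below are differences of this kind. Another TRIM36 probe set, under the filter, read 25.8, 25.2 and 10.9 units on the PARK2 arrays and 0.90, 2.77 and 0.63 units on the control arrays. The remaining ones, also under the filter, had overlapping groups. One read 8.69, 13.9 and 3.02 units on the PARK2 arrays and 6.77, 3.04 and 3.93 on the control arrays. The last read 1.30, 1.65 and 0.83 units on the PARK2 arrays and 1.53, 1.63 and 2.10 on the control arrays.

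The other 3 genes of the COS, fibronectin and SPRY subfamily did not pass. TRIM46, which organises microtubules at the start of the axon, was at 0.38 (adjusted p 0.126), TRIM67 at 0.0014 (0.998) and TRIM9, a brain-enriched ligase, at -0.32 (0.174). TRIM9 depended on the probe set. Its dimmer probe set read 42.1, 41.8 and 34.0 units on the PARK2 arrays against 88.6, 75.1 and 78.0 on the control arrays, a log2 fold change of -0.80 (SE 0.18, adjusted p 0.0031 over all 26603 probe sets past the filter).

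**Figure D2:**
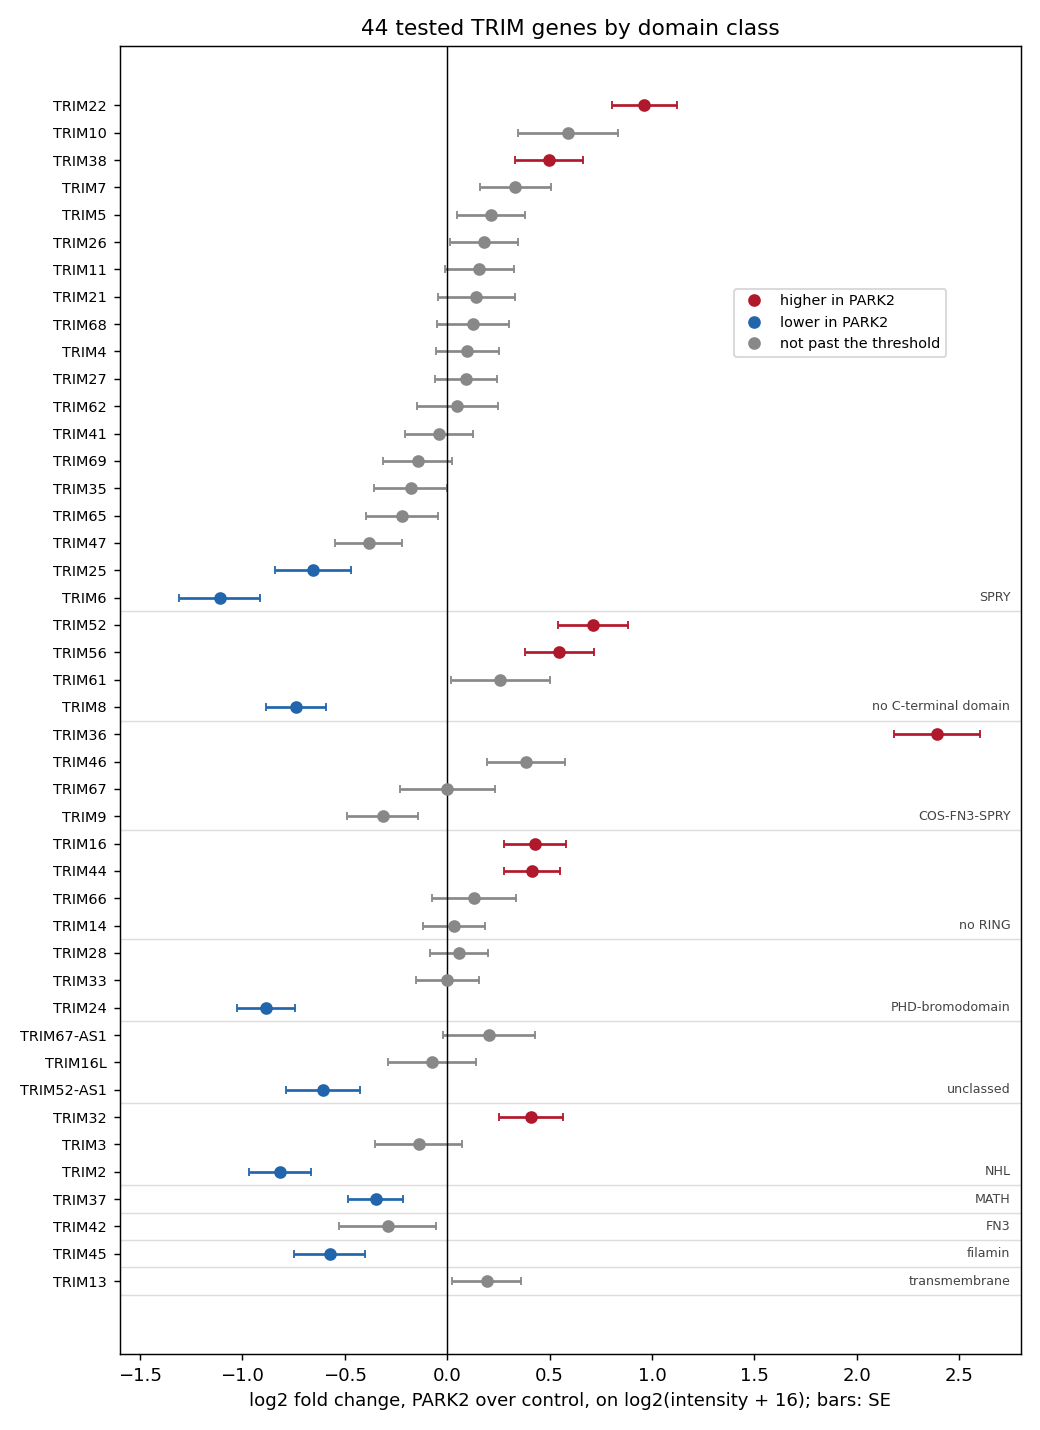
Log2 fold change, PARK2 over control, of the 44 tested TRIM genes (x axis, on log2(intensity + 16); bars are SE), grouped down the page by domain class. TRIM36 lies at 2.39, TRIM22 at 0.96 and TRIM6 at -1.11, and the SPRY and NHL classes hold points on both sides of 0.

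The SPRY subfamily, whose C-terminal domain binds proteins, had 19 tested genes, with 2 higher (TRIM22 and TRIM38), 2 lower (TRIM6 and TRIM25) and a median log2 fold change of 0.10. These are 4 of 19, where 28.8% of all tested genes passed. Each gene was counted in 1 class only, so genes without a RING finger, TRIM14 and TRIM16 among them, are not in this count. TRIM22, which restricts several viruses, read 467, 529 and 560 units on the PARK2 arrays, against 332, 211 and 243 on the control arrays. The groups were apart, with a log2 fold change of 0.96 (SE 0.16, adjusted p 1.7e-06). TRIM6, which builds free ubiquitin chains that help activate IKK-epsilon, read 47.0, 21.3 and 37.2 units on the PARK2 arrays, against 104, 93.5 and 80.1 on the control arrays. All 3 PARK2 arrays lay below all 3 control arrays, with a log2 fold change of -1.11 (SE 0.20, adjusted p 6.2e-06).

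TRIM38, a brake on Toll-like receptor signalling, read 224, 344 and 296 units on the PARK2 arrays, against 218, 195 and 179 on the control arrays. PARK2 replicate 1 stood only just above control replicate 1, and the log2 fold change was 0.50 (SE 0.17, adjusted p 0.0173). TRIM56, a ligase with no C-terminal domain of the family which promotes cGAS and STING signalling, read 294, 294 and 320 units on the PARK2 arrays, against 284, 187 and 154 on the control arrays (log2 fold change 0.55, SE 0.17, adjusted p 0.0098). Control replicate 1 was again the array nearest to the PARK2 group. Its other probe set past the filter was at 0.06 (adjusted p 0.845 over all probe sets).

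TRIM25, the ligase that modifies the RNA sensor RIG-I, was the gene of the 16 whose groups overlapped. It read 110, 224 and 239 units on the PARK2 arrays, against 218, 340 and 344 on the control arrays. Replicate 1 was the lowest array in both groups, and the log2 fold change was -0.65 (SE 0.19, adjusted p 0.0046). Without PARK2 replicate 1 it was -0.33 (adjusted p 0.243). After subtracting the median of its neighbours along chromosome 17, which stood at -0.27, it was -0.39 (adjusted p 0.241). The call of TRIM25 was also lost with no filter, quantile normalization, trimmed mean scaling, no intensity trend or its probe sets averaged.

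The other 15 SPRY genes did not pass. TRIM5, the retroviral restriction factor, was at 0.21 (adjusted p 0.382), TRIM21, the cytosolic antibody receptor, at 0.14 (0.641) and TRIM26 at 0.18 (0.479). TRIM47 was at -0.38 (adjusted p 0.0726) and TRIM10 at 0.59 (0.0602), and both had groups that did not overlap. TRIM10 averaged 20.3 units in PARK2 cells and 8.67 in control cells, under the filter level there, so it was tested only through its PARK2 arrays.

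Within 1 gene cluster, TRIM genes moved in opposite directions. TRIM6, TRIM5 and TRIM22 lie in one cluster on the short arm of chromosome 11, and in it TRIM6 fell (-1.11), TRIM5 did not pass (0.21) and TRIM22 rose (0.96). The 10 tested genes on each side had medians of 0.02 for TRIM6 and -0.02 for TRIM22.

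TRIM52 and the antisense RNA TRIM52-AS1, which start from opposite strands of one stretch of chromosome 5, also moved in opposite directions. TRIM52 codes for a RING and B-box protein with no C-terminal domain. It read 186, 180 and 176 units on the PARK2 arrays, against 128, 97.4 and 89.4 on the control arrays. The groups were apart, with a log2 fold change of 0.71 (SE 0.17, adjusted p 7.2e-04), and a second probe set rose by 0.63 (adjusted p 0.0406 over all probe sets). TRIM52-AS1 read 71.6, 56.9 and 62.3 units on the PARK2 arrays, against 130, 101 and 87.3 on the control arrays. Here every PARK2 array was below every control array, with a log2 fold change of -0.61 (SE 0.18, adjusted p 0.0079, and 0.0601 without PARK2 replicate 2). A second probe set of TRIM52-AS1 was at -0.26 (adjusted p 0.411). The neighbours of TRIM52 had a median of 0.04 and those of TRIM52-AS1 of 0.24. On the same arm TRIM41 was at -0.04 and TRIM7 at 0.33, neither past the threshold.

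The RefSeq start sites of the pair lie 69 bases apart. The window around the TRIM52 start is shown because both RNAs begin within it, on opposite strands. It is chr5:181261094-181261393 on the minus strand of GRCh38.p14, written 5′ to 3′ along TRIM52, and the capitals run from the TRIM52-AS1 start to the TRIM52 start. Its GC content is 71.0%, beside a median of 58.7% over 35116 promoter windows.
TRIM52 and TRIM52-AS1: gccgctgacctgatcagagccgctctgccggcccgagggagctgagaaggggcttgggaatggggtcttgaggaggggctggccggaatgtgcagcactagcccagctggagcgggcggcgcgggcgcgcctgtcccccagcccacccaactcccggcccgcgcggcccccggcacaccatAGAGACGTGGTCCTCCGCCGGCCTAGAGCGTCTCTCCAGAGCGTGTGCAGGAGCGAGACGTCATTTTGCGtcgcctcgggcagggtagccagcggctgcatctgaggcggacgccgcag

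TRIM24 fell while TRIM28 and TRIM33, placed with it in a chromatin-binding class, did not pass. TRIM66, a relative of TRIM24, was counted with the genes without a RING finger below. TRIM24, TRIM28 and TRIM33 carry a PHD finger and a bromodomain and act as transcriptional co-regulators, TRIM28 as the partner of KRAB zinc finger repressors. TRIM24 read 685, 641 and 670 units on the PARK2 arrays, against 1409, 1213 and 1119 on the control arrays. The PARK2 arrays were close together and all below the control arrays, with a log2 fold change of -0.88 (SE 0.14, adjusted p 7.2e-07). All 3 of its probe sets past the filter fell, by 0.88, 0.79 and 0.68 on the log2 scale. The brighter ones are marked _x_at. The one at -0.68 was dim, at 22.1 to 26.1 units on the PARK2 arrays and 40.9 to 66.2 on the control arrays. With probe sets marked _x_at and _s_at dropped, it stood for the gene (limma adjusted p 0.0105). TRIM28 averaged 856 ± 76.7 units in PARK2 cells and 824 ± 98.0 in control cells (SD, n = 3 each; limma adjusted p 0.825), and the 95% interval of its log2 fold change ran from -0.23 to 0.34. TRIM33, which acts in TGF-beta signalling, was at 0.0016 (adjusted p 0.996), with an interval from -0.30 to 0.31. Whether the change of TRIM24 differs from those of TRIM28 and TRIM33 was not tested.

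In the NHL subfamily TRIM2 fell and TRIM32 rose. TRIM2, a ligase of neurons that in the mouse targets the neurofilament light chain, read 427, 479 and 518 units on the PARK2 arrays, against 950, 899 and 707 on the control arrays. The groups were apart, with a log2 fold change of -0.82 (SE 0.15, adjusted p 1.2e-05). Of its 5 probe sets past the filter 3 fell, and the other 2, both dim, were at -0.41 and 0.03. TRIM32, mutated in a form of limb-girdle muscular dystrophy, read 396, 392 and 443 units on the PARK2 arrays, against 345, 314 and 260 on the control arrays (log2 fold change 0.41, SE 0.16, adjusted p 0.0399). The third tested gene of the class, TRIM3, was at -0.14 (adjusted p 0.697).

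TRIM8 fell, and the remaining falls were smaller. TRIM8, a RING protein tied to cytokine signalling and p53 stability, read 438, 454 and 476 units on the PARK2 arrays, against 813, 767 and 733 on the control arrays. Both groups were tight and apart, with a log2 fold change of -0.74 (SE 0.15, adjusted p 4.8e-05). A second bright probe set fell by 0.82 on the log2 scale, while 3 dim ones, at -0.30, -0.02 and 0.38, did not pass. When all its probe sets past the filter were averaged, TRIM8 was at -0.30 (adjusted p 0.139). The neighbours of TRIM8 on chromosome 10 had a median of -0.34.

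TRIM45, a filamin-domain protein that dampens MAP kinase signalling, read 181, 122 and 173 units on the PARK2 arrays, against 332, 214 and 196 on the control arrays (log2 fold change -0.57, SE 0.17, adjusted p 0.0088). Its call was lost without control replicate 1 (adjusted p 0.115) or PARK2 replicate 2 (0.148), and its second probe set was at 0.09 (0.789 over all probe sets). TRIM37, the MATH-domain ligase of the centrosome and of mulibrey nanism, read 1163, 1372 and 1232 units on the PARK2 arrays, against 1825, 1504 and 1494 on the control arrays. The groups did not overlap, and the log2 fold change was -0.35 (SE 0.14, adjusted p 0.0434). A dimmer probe set of TRIM37 was at 0.15 (adjusted p 0.627 over all probe sets).

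Of the 4 tested TRIM genes without a RING finger, 2 rose and 0 fell, where 13.3% of all tested genes rose and 15.6% fell. TRIM44, which carries a zinc finger of the ubiquitin protease type, read 1245, 1226 and 1348 units on the PARK2 arrays, against 1034, 940 and 884 on the control arrays (log2 fold change 0.41, SE 0.14, adjusted p 0.0170). TRIM16, which takes part in the autophagy of damaged lysosomes, read 722, 649 and 714 units on the PARK2 arrays, against 603, 523 and 423 on the control arrays (log2 fold change 0.43, SE 0.15, adjusted p 0.0239). The groups did not overlap in either gene, though for TRIM16 the gap between them was smaller than the range of the control arrays. TRIM16 lay among neighbours with a median of -0.26. TRIM14, an adaptor of MAVS signalling, was at 0.03 (adjusted p 0.906) and TRIM66, a testis-enriched relative of TRIM24, at 0.13 (0.702). In the 2 classes that had a tested gene and none past the threshold, TRIM13, a ligase anchored in the endoplasmic reticulum, was at 0.19 (adjusted p 0.443) and TRIM42 at -0.29 (0.410).

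Several of the smaller calls were lost without 1 array. With each array left out in turn, those of TRIM16 and TRIM32 were lost in 5 of 6 fits, in all but the one without control replicate 1 (highest adjusted p 0.128 and 0.200). TRIM37 lost its call without any 1 of the 3 PARK2 arrays or control replicate 2 (up to 0.191). TRIM38 and TRIM44 lost theirs without PARK2 replicate 2, PARK2 replicate 3 or control replicate 2 (up to 0.219 and 0.125), and TRIM56 without control replicate 2 or 3 (up to 0.0771). Over all 20 alternative settings, TRIM6, TRIM22, TRIM24, TRIM36 and TRIM52 stayed past the threshold wherever they had a value. TRIM36 passed the filter through its PARK2 arrays alone, so its calls in the settings with that filter are a description.

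**Figure D3:**
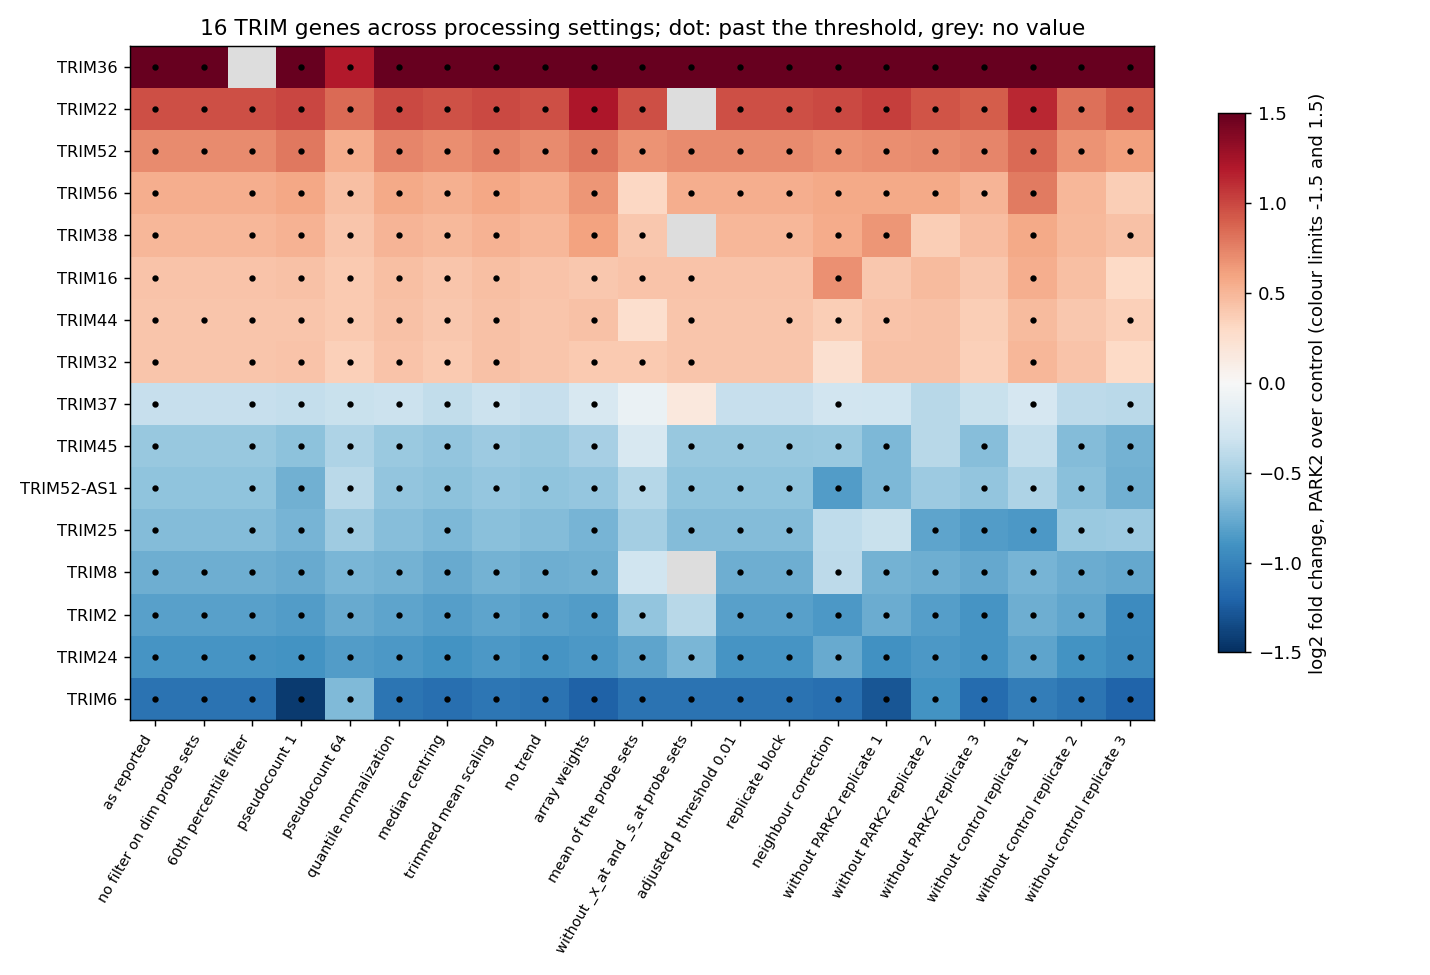
Log2 fold change, PARK2 over control (colour, cut off at -1.5 and 1.5), of the 16 TRIM genes past the threshold (rows) as reported and under the 20 alternative settings (columns); a dot marks a value past the threshold and grey a setting with no value for the gene. TRIM6, TRIM22, TRIM24, TRIM36 and TRIM52 carry a dot in every coloured cell, and TRIM37 changes sign in 1 column, to 0.15. TRIM36 passed the filter through its PARK2 arrays alone, so its dots in the settings with that filter are a description.

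The other probe sets of a gene did not always follow its brightest one. Of 89 TRIM probe sets past the filter 20 passed when all probe sets were tested together (8 higher and 12 lower), which is 22.5% beside 20.4% of all 26603. Of 27 TRIM genes with 2 or more such probe sets, TRIM2, TRIM8, TRIM24 and TRIM52 had at least 2 past the threshold, and 0 had probe sets past it in opposite directions. In that larger test the brightest probe sets of TRIM16, TRIM25, TRIM32, TRIM37 and TRIM38 did not pass (adjusted p 0.0505 to 0.0705). TRIM7, a ligase that binds glycogenin, did not pass on its brightest probe set (0.33, adjusted p 0.154), while a dim one, at 25.9 to 28.6 units on the PARK2 arrays and 8.37 to 15.5 on the control arrays, was at 0.65 (adjusted p 0.0328 over all probe sets).

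**Figure D4:**
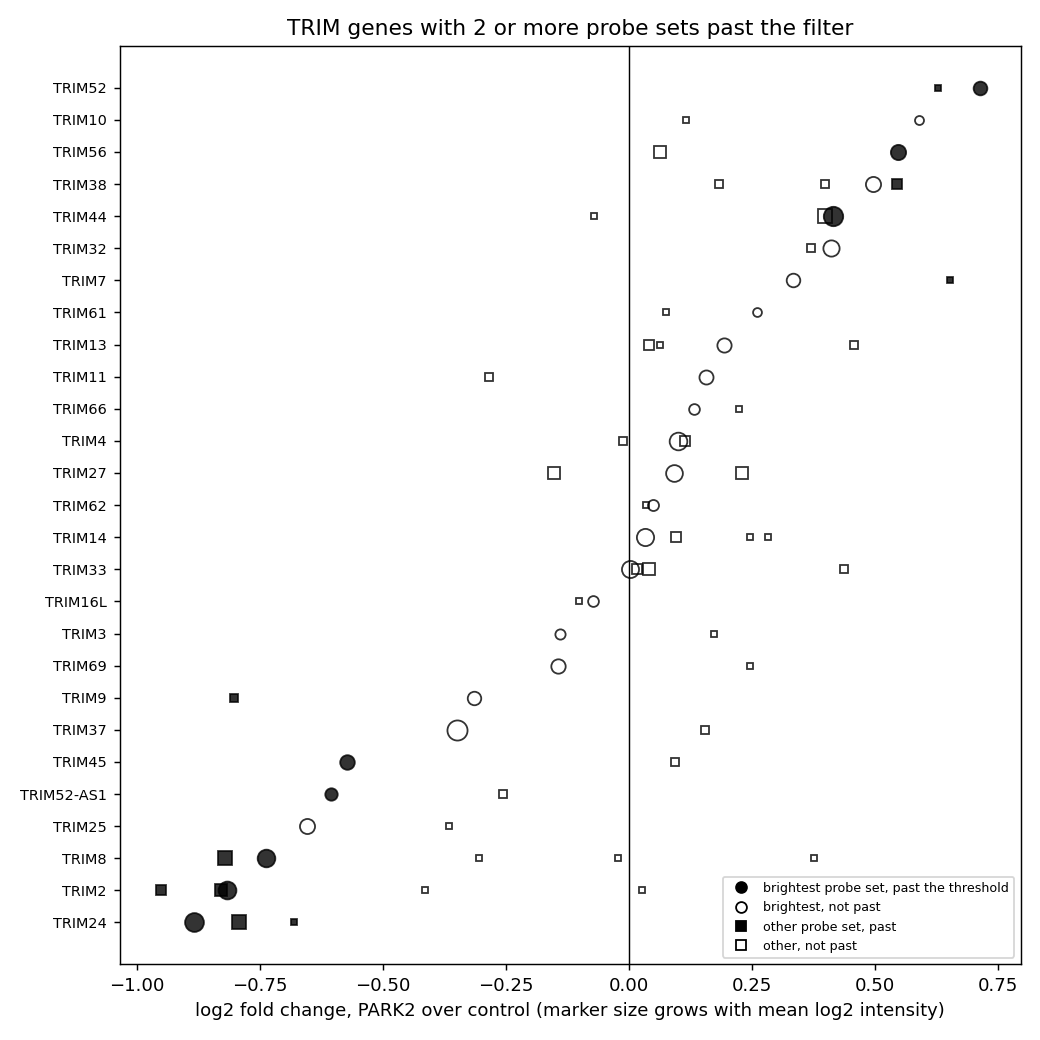
Log2 fold change, PARK2 over control (x axis), of every probe set past the filter for the 27 TRIM genes with 2 or more of them (rows); circles are the brightest probe set of a gene, squares the others, filled where the adjusted p over all 26603 probe sets passed, and larger markers are brighter probe sets. The 3 probe sets of TRIM24 lie between -0.88 and -0.68, while the second probe sets of TRIM45 (0.09) and TRIM56 (0.06) lie near 0.

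Interferon raises several TRIM genes through the interferon-stimulated response element, so its core was searched in promoter windows of 300 bases (250 before and 50 after each RefSeq start, GRCh38.p14). The motif was GAAA, any 2 bases and GAAA, on either strand. Of the 44 tested TRIM genes 33 had a window, 47 windows in all, and the motif lay in 8 of the 47 (17.0%), beside 3.57% of 35116 windows. The 8 genes were TRIM2, TRIM5, TRIM14, TRIM16, TRIM21, TRIM26, TRIM44 and TRIM69. Among the 12 genes past the threshold with a window, TRIM16 and TRIM44 rose and TRIM2 fell with a match. The remaining genes past the threshold had no window and were not searched. A part of interferon in these changes was not tested. The core of the NRF2 site, TGACNNNGC, was searched on both strands of the same windows and lay in 10.6% of the TRIM windows and 13.3% of all.

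The stretches below are shown to set the matches of the 3 genes past the threshold beside those of TRIM5 and TRIM21, which did not pass. Each has 30 bases, 5′ to 3′ along its gene, with the motif in capitals. They are chr11:35662730-35662759 (plus strand) for TRIM44, chr17:15683012-15683041 (minus) for TRIM16, chr4:153151936-153151965 (plus) for TRIM2, chr11:5685082-5685111 (minus) for TRIM5 and chr11:4393666-4393695 (minus) for TRIM21.
TRIM44: tcctgacgggGAAAGGGAAAgtggaaccgg
TRIM16: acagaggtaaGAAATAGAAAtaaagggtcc
TRIM2: aataaatagaGAAAAGGAAAtaagccgaag
TRIM5: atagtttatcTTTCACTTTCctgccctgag
TRIM21: cttctgagcgGAAACTGAAAgtgaaatagg

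Lists of genes related to the family were read beside it. Of 10 tested relatives of the family that go by other names, 1 rose and 2 fell, where 28.8% of all tested genes passed. MID1, the microtubule-binding ligase of Opitz syndrome, rose, at 771 ± 79.5 units in PARK2 cells and 505 ± 37.2 in control cells (SD, n = 3 each; log2 fold change 0.59, limma adjusted p 0.0012). Its close relative MID2 fell (-0.58, adjusted p 0.0083), as did PML (-0.77, adjusted p 0.0018), the organiser of nuclear bodies. The count of 2 lower became 0 without PARK2 replicate 2, and 1 without control replicate 1 and under 4 other settings.

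Of 18 tested genes of RIG-I, cGAS and interferon signalling, 2 rose and 1 fell (16.7%, beside 28.8% of all tested genes), and the median log2 fold change was 0.06. IRF9, the DNA-binding subunit of the interferon-activated complex, rose by 0.61 (adjusted p 0.0036) and IKBKG, the scaffold of the IKK complex, by 0.54 (0.0090), while RELA, a subunit of NF-kB, fell by 0.44 on the log2 scale (0.0314). RIGI, the target of TRIM25, was at 0.12 (adjusted p 0.694). Over the 20 alternative settings the higher count ran from 1 (without PARK2 replicate 1 or control replicate 3) to 5 (array weights). The lower count ran from 0 to 3, and was 0 in 11 settings, among them those without any 1 PARK2 array, without control replicate 1 and without control replicate 2.

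Of 13 tested partners of TRIM28 in heterochromatin, 0 rose and 1, TASOR, a subunit of the HUSH silencing complex, fell (-0.52, adjusted p 0.0054). That is 7.69%, beside 28.8% of all tested genes. The higher count ran from 0 to 5 over the settings, with 5 under array weights and without control replicate 1. The lower count ran from 0 to 2, and was 0 without PARK2 replicate 1, without PARK2 replicate 2, under the neighbour correction and without the _x_at and _s_at probe sets. Of 12 listed ubiquitin-conjugating enzymes and enzyme variants with which RING ligases work, 7 were tested. Of these 7, 3 rose and 2 fell (71.4%, beside 28.8%). UBE2K rose by 0.84 (adjusted p 1.0e-06) and UBE2E2 by 0.63 (0.0010), and UBE2V2 fell by 0.59 on the log2 scale (1.7e-04). Their chromosomal neighbours had medians of 0.61 for UBE2K, -0.17 for UBE2E2 and -0.38 for UBE2V2. Over the 20 alternative settings the higher count ran from 2 to 3 and the lower count from 1 to 2. The higher count was 2 under the neighbour correction.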

How the data were processed

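RNA of 3 PARK2 and 3 control samples of U251 cells was hybridised to Affymetrix arrays. Each deposited value is an intensity on a linear scale. The submitters' processing notes name the programs GCOS and MAS5 but give neither versions nor a scaling target. Of 54675 probe sets, 62 were controls. Gene names came from the platform annotation of GEO, in which 41091 probe sets had 1 gene, 1801 several and 11721 none in the table used, and RefSeq gene numbers updated 0 symbols. TRIM23 was not analysed here.

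Intensities were turned into log2(value + 16) without further normalization, so fold changes understate those of dim genes. Levels of different probe sets were not compared. The 13720 tested genes were fitted in R 4.3.3 by limma 3.58.1, letting the variance follow intensity (60.8 prior and 4 residual degrees of freedom) and Benjamini-Hochberg adjustment at 0.05. Tested on simulated arrays of 13720 genes for this comparison, with 200 changed, it recovered 22.4% of changes of 1.5-fold, 74.6% of 2-fold and 98.5% of 4-fold, and 3 unchanged genes passed. The simulated arrays had independent errors, without shifts shared by the genes of an array such as that of control replicate 1. These rates therefore need not hold for the real arrays. The number of arrays limits the precision.

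The named genes were all TRIM genes past the threshold, the 6 TRIM genes with the highest mean (TRIM2, TRIM8, TRIM24, TRIM28, TRIM37 and TRIM44), the brightest 2 tested genes of each class with none past it, and the 3 largest changes past the threshold in each related list. Others were named after their values were seen. The members and lists were chosen with earlier results of these data known. Array pairs from different groups had correlations of 0.969 to 0.973 and pairs within groups of 0.984 to 0.988, and 0 arrays were duplicates. Alternatives covered the filter, pseudocount, normalization, variance model, array weights, probe set choice, threshold, replicate block, neighbouring genes and each array left out. The test of all probe sets was added after seeing the data. A further motif search is not reported here.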

Additional observations from a re-analysis of the deposited data

Results flagged for a closer look

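Probe sets shared by several genes were left out of the comparison, and of 5 past the filter that read TRIM genes 2 stood higher on all 3 PARK2 arrays than on all 3 control arrays, as did 18.3% of all tested genes. The one shared by TRIM73, STAG3L2 and STAG3L3 averaged 154 units in PARK2 cells and 74.3 in control cells. The one shared by TRIM73 and TRIM74 averaged 18.95 units in PARK2 cells and 7.52 in control cells, under the filter level there, so it passed only through its PARK2 arrays. Neither difference was tested, and the gene that gives the signal was not identified here.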

How the results depend on the processing

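Of the 16 TRIM genes past the threshold, 15 kept their direction in each of the 20 alternative settings that gave them a value (TRIM36 had none with the 60th percentile filter, and TRIM8, TRIM22 and TRIM38 none without the _x_at and _s_at probe sets); the exception was TRIM37, at 0.15 with probe sets marked _x_at and _s_at dropped, where a dimmer probe set stands for the gene. The 8 higher and 8 lower TRIM genes became 4 and 4 without the filter on dim probe sets, 4 and 5 without the intensity trend, 4 and 7 at an adjusted p of 0.01, 7 and 5 with probe sets of a gene averaged, and 6 and 5 without the _x_at and _s_at probe sets. They became 11 and 10 with array weights, 10 and 8 with trimmed mean scaling and 9 and 8 with quantile normalization. With an array left out, 4 to 9 were higher and 5 to 9 lower, and 9 and 7 without control replicate 1. Over all genes 1818 were higher and 2139 lower, with 3616 higher under array weights and 1208 to 2800 higher and 1550 to 2618 lower with an array left out. The median of all genes stayed between -0.07 and 0.07. Same-numbered arrays of the groups deviated from their group means with correlations across genes of 0.168, 0.045 and 0.065, not all best with their own number, so the numbers were not taken to pair the arrays. With the replicate number as a block 6 TRIM genes were higher and 7 lower, and TRIM16, TRIM32 and TRIM37 were not past the threshold. The causes of these shifts were not tested.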

Other observations

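Of 13 shared probe sets that read TRIM genes, 5 were past the filter. The one for TRIM34 and its read-through with TRIM6 averaged 44.1 units in PARK2 cells and 40.6 in control cells, with overlapping groups. A probe set for TRIM39, RPP21 and their read-through ran from 1054 to 1323 units on the PARK2 arrays and from 529 to 1507 on the control arrays.

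NEFL, the neurofilament light chain that TRIM2 targets in the mouse, stood at 2886, 3043 and 3017 units on the PARK2 arrays, against 107, 101 and 65.3 on the control arrays, while TRIM2 was lower in PARK2 cells (474 ± 45.9 units, against 852 ± 128 in control cells, SD, n = 3 each). The log2 fold change of NEFL was 4.83 (limma adjusted p 1.1e-36). These values are of RNA, and levels of the proteins were not measured. A relation between these RNAs was not tested.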
